A study of Mus musculus with 6 samples.

Results

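Postsynaptic scaffolds, calcium/calmodulin-dependent kinase II and spine signalling proteins were examined as a set of 31 genes in a deposited table of 23067 genes. They were picked by gene symbol and not by a measured value, though with earlier results of these data known. All 31 had a row, and Dlg2 had 2 rows, of which ENSMUSG00000052572 carried nearly all of its signal and ENSMUSG00000108872 stayed between 0.31 and 0.46 FPKM. RNA was sequenced from dorsal striatum of mice at postnatal day 21, from 3 knock-in samples homozygous for the G2019S substitution in the kinase gene Lrrk2, in which this change is a known cause of inherited Parkinson's disease, and from 3 wild-type samples, all titled male. The knock-in changes the endogenous Lrrk2 gene in every cell of the animal, so effects within striatum cannot be told apart from effects that start elsewhere. FPKM, the unit of the table, expresses a level per length of transcript and per size of library.

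The dorsal striatum is built mostly of GABAergic projection neurons whose dendritic spines receive glutamate from cortex and thalamus. Below the receptors of each spine lies the postsynaptic density, a layered protein mesh. Membrane-associated guanylate kinases encoded by the Dlg genes hold the receptors, Dlgap proteins link them to Shank proteins, and Homer proteins join Shank to metabotropic receptors and calcium stores. CaMKII is the abundant kinase that decodes spine calcium in plasticity, and regulators of small GTPases and of actin set the shape of the spine.

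The libraries carried the markers of the labelled tissue. The 10 striatal projection neuron markers summed to between 2787 and 3087 FPKM, with Penk, an opioid peptide gene, at 1024 to 1157 FPKM. Markers of cortical excitatory neurons were uneven, and 11 of 12 listed genes had a row. Their sum was 97.1 and 84.6 FPKM in knock-in replicates 1 and 2. It was 67.6 FPKM in wild type replicate 1 and 50.1 to 52.7 FPKM in the other 3 libraries. Lamp5, the highest of these genes, stayed at 41.1 to 48.2 FPKM in every library and made up much of each sum. Slc17a7, the next highest, ran from 2.73 to 29.9 FPKM, so the sums understate the unevenness of the other markers. Knock-in replicate 3 stood apart in other ways, with myelinating oligodendrocyte markers at 2943 FPKM, against 3450 and 3644 FPKM in the other knock-in libraries and 3620 to 4128 FPKM in wild type, blood genes at 761 FPKM against 1136 to 1479 FPKM, and 23.2% of summed FPKM in mitochondrial genes against 18.0% to 20.5%. Wild type replicate 2 held choroid plexus genes at 383 FPKM against 6.47 to 21.7 FPKM. Xist, the noncoding RNA of the inactive X chromosome in females, was at 27.2 to 39.3 FPKM in all 6 libraries, which goes against the titled sex in every one of them. In bulk tissue, fewer cells of a type and less RNA per cell cannot be told apart.

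The set was strongly expressed. Neurogranin (Nrgn), a small protein that holds calmodulin in spines at low calcium, led at 857 to 1047 FPKM in knock-in and 845 to 936 FPKM in wild type, the 99.8th percentile of tested genes. The dendritic protein gene Ddn followed at 384 to 415 FPKM and Agap2, a GTPase-activating protein for Arf, at 195 to 212 FPKM. Together with Dlg4, Camk2a and Camk2b these were the 6 members with a mean of at least 100 FPKM, while 8 members had a mean under 10 FPKM. Camk2d was lowest, at 0.904, 0.565 and 0.584 FPKM in wild type and at 0.935, 0.632 and 0.556 FPKM in knock-in, and was left out of the test by the minimum mean of 1 FPKM. The median level of the 30 tested members was 20.9 FPKM, against 5.85 FPKM over all genes tested.

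**Figure D1:**
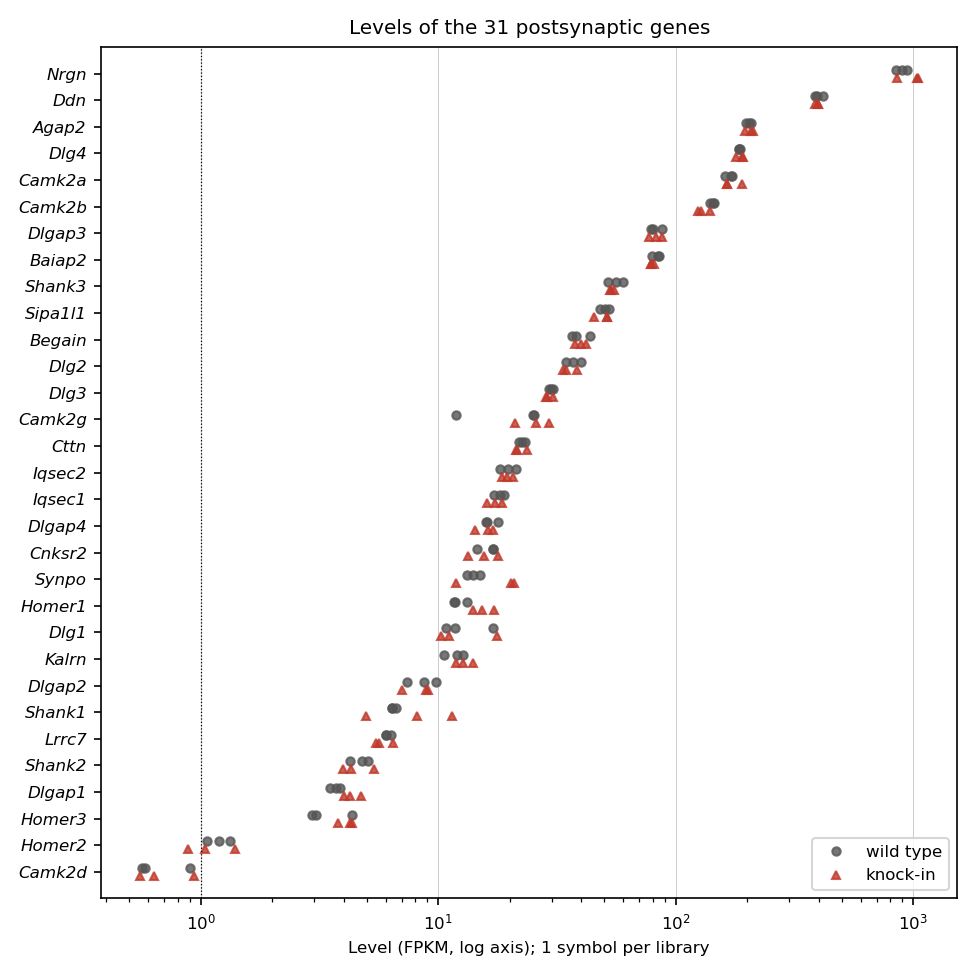
Levels of the 31 genes on a log FPKM axis, 1 symbol per library (grey circles, wild type; red triangles, knock-in), ordered by mean level, with a dotted line at 1 FPKM. Levels run from Camk2d, near 0.696 FPKM on average, to Nrgn, near 936 FPKM, and the symbols of most genes overlap between genotypes.

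Each scaffold family was dominated by 1 paralogue, and the dominant one was the same in all 6 libraries. Dlg4, which encodes the core scaffold PSD-95, was at 69.8% ± 1.15 of summed Dlg FPKM in wild type and at 70.7% ± 2.81 in knock-in (SD, n = 3 each, the order of all pairs that follow). Shank3, the striatal Shank and a gene linked to autism, made up 83.3% ± 0.656 and 81.0% ± 4.29 of its family, and Dlgap3, whose loss in mice causes compulsive grooming, 74.0% ± 0.725 and 74.3% ± 0.395. Homer1 held 72.5% ± 3.99 and 74.6% ± 3.56 of Homer FPKM. CaMKII was shared between the alpha gene Camk2a, at 50.7% ± 2.26 and 52.4% ± 2.61, and the actin-binding beta gene Camk2b, at 42.9% ± 0.928 and 39.7% ± 3.15. The Arf exchange factors Iqsec1 and Iqsec2 were near parity, with Iqsec2 at 52.1% ± 1.38 and 53.1% ± 1.67. Of the 20 shares computed in 6 families, 1 had groups that did not overlap. It was that of Dlgap1, at 3.27% to 3.40% in wild type and at 3.82% to 4.04% in knock-in. Dlgap1 was also separated in its level, as described below. For levels, 2.92% of all genes tested were wholly higher in knock-in and 6.58% wholly lower. These shares are descriptions with no test.

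**Figure D2:**
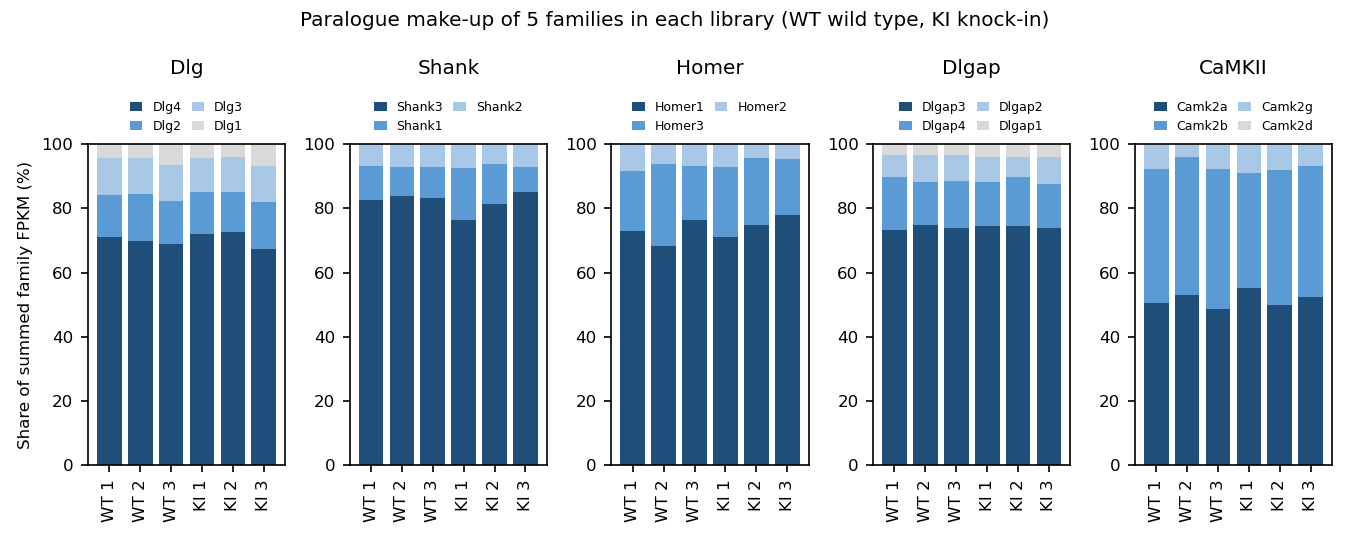
Share of each paralogue in the summed FPKM of its family (percent), 1 bar per library, for 5 families. The darkest segment, the leading paralogue, is Dlg4, Shank3, Homer1, Dlgap3 or Camk2a in every library, and it ranges from 67.5% to 72.6% for Dlg4.

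The genotypes were then compared gene by gene on log2(FPKM + 1) with limma over the 14156 genes whose mean reached 1 FPKM. The postsynaptic set showed no member past the threshold. None of the 30 tested members was called at an adjusted p under 0.05, where 0.0212% of all tested genes were. Homer1 and Dlgap1 had an unadjusted p under 0.05, both higher in knock-in, where 1.25% of all genes were higher at that level. No member was lower at that level, where 3.02% of all genes were. Homer1 and Dlgap1 were also the 2 members whose knock-in libraries all lay above the wild-type ones, a pattern shown by 2.92% of all genes, and Camk2b was the 1 member whose knock-in libraries all lay below, as in 6.58% of all genes. Of the members, 12 were higher and 18 lower, with a median log2 difference of -0.02, against -0.01 over all genes tested. For 21 of 30 members the 95% interval of the fold lay within 0.8 to 1.25, as it did for 72.4% of all genes.

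**Figure D3:**
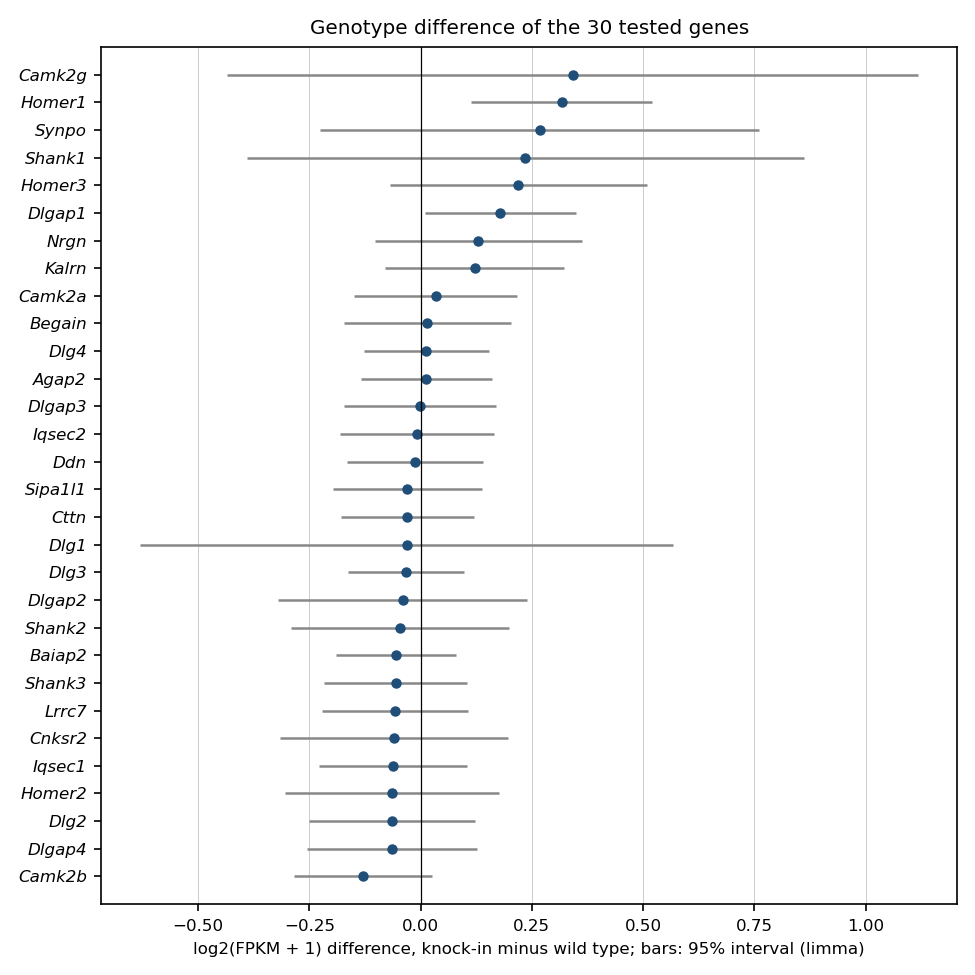
Difference in log2(FPKM + 1), knock-in minus wild type, for the 30 tested genes, with 95% intervals from limma. Camk2g, Synpo, Shank1 and Dlg1 have the widest intervals, and only those of Homer1 and Dlgap1 lie wholly above 0, with 0 genes past the adjusted threshold.

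Among the receptor-holding guanylate kinases, Dlg4 was at 184, 186 and 185 FPKM in wild type and at 191, 191 and 179 FPKM in knock-in. The 3 wild-type levels lay inside the knock-in range. The difference was 0.01 (SE 0.06, adjusted p = 0.997 in limma), and the 95% interval of the fold, on the scale of FPKM + 1 as for every fold interval here, ran from 0.915 to 1.11. Dlg3, the guanylate kinase prominent at young synapses, was at 28.3 to 30.4 FPKM over the 6 libraries, with a fold interval of 0.893 to 1.07. Dlg2, which helps cluster receptors and channels, was at 33.4 to 39.8 FPKM, with a fold interval of 0.841 to 1.09.

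Among the deeper scaffolds, Shank3 was at 51.7, 59.9 and 55.9 FPKM in wild type and at 54.9, 53.3 and 52.7 FPKM in knock-in. The knock-in levels lay within the wild-type range, with a difference of -0.06 (SE 0.07, fold interval 0.860 to 1.08). Shank2 ranged from 3.98 to 5.36 FPKM. Dlgap3 was at 78.9, 87.4 and 80.5 FPKM in wild type and at 87.1, 82.5 and 76.9 FPKM in knock-in. Its groups overlapped throughout, with a fold interval of 0.888 to 1.12. Dlgap2 and Dlgap4, which serve the same link, ranged from 7.06 to 9.76 FPKM and from 14.2 to 17.8 FPKM.

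Homer1 had the smallest p of the set. Its protein tethers group I metabotropic receptors to Shank, and a short form made during activity, Homer1a, loosens that tether. Homer1 (ENSMUSG00000007617) lies on chromosome 13 from 93299635 to 93405129 in GRCm38. It was at 11.7, 11.7 and 13.2 FPKM in wild type and at 14.0, 15.3 and 17.2 FPKM in knock-in. Every knock-in library was above every wild-type one. Means were 12.2 ± 0.888 and 15.5 ± 1.58 FPKM (SD, n = 3 each), and the log2 difference was 0.32 (SE 0.09, adjusted p = 0.997 in limma), with a fold interval of 1.08 to 1.43. The difference did not pass the threshold in any of the 14 alternatives, where it ran from 0.24 to 0.43 with adjusted p-values from 0.379 to 1 in limma. It was 0.24 without knock-in replicate 3, the library with the highest Homer1. That library had cortical markers at 52.7 FPKM, most of it Lamp5 at 44.7 FPKM, inside the wild-type range of 50.1 to 67.6 FPKM. Its make-up differed in other ways. It had the highest striatal projection neuron marker sum, 3087 FPKM, and 23.2% mitochondrial FPKM. Its myelinating oligodendrocyte and blood sums, 2943 and 761 FPKM, were the lowest. Whether these bear on Homer1 was not tested. Adding the level of the cortical markers to the fit gave a difference of 0.43. The table gives 1 level per gene, so Homer1a and the long forms were not separated, and 12 transcripts are annotated.

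The other Homer genes were lower in level. Homer3 was at 2.92 to 4.35 FPKM in wild type and at 3.79 to 4.34 FPKM in knock-in, with wild type replicate 2 as high as the highest knock-in library, and Homer2 was at 1.06 to 1.33 and 0.886 to 1.40 FPKM. Summed Homer FPKM was at 16.1 to 17.3 in wild type and at 19.8 to 22.0 in knock-in, which did not overlap. Homer1 made up 72.5% and 74.6% of that sum on average, so the separation largely repeats that of Homer1. The Dlg, Shank, Dlgap, CaMKII and Iqsec sums overlapped between genotypes. The Homer sum was not tested. Homer3 shares 874 exon bases with Ddx49 on the opposite strand.

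Dlgap1 (ENSMUSG00000003279), a linker between PSD-95 and Shank, lies on chromosome 17 from 69969073 to 70821413. It was at 3.51, 3.85 and 3.71 FPKM in wild type and at 4.72, 4.23 and 3.99 FPKM in knock-in. The knock-in libraries were all higher, by a small margin for knock-in replicate 3. The log2 difference was 0.18 (SE 0.07, adjusted p = 0.997 in limma), with a fold interval of 1.01 to 1.27, and it was 0.13 with the cortical covariate. Its unadjusted p of 0.0415 in limma rose above 0.05 with that covariate, with the replicate number as a block (0.0714), and when any one library other than knock-in replicate 3 was left out. Knock-in replicates 1 and 2, the libraries with the highest cortical marker sums, were also the highest for Dlgap1. Dlgap1 shares 92 exon bases with a gene on the opposite strand, and the strand setting of the authors' counting is not given, so reads there may be mixed.

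Camk2b (ENSMUSG00000057897), on chromosome 11 from 5969644 to 6066362, stood the other way. It was at 143.1, 138.84 and 145.4 FPKM in wild type and at 124.4, 138.77 and 127.5 FPKM in knock-in. Knock-in replicate 2 lay just under wild type replicate 2, so the separation of the groups rested on a difference of less than 1 FPKM. The log2 difference was -0.13 (SE 0.07, adjusted p = 0.997 in limma), with a fold interval of 0.821 to 1.02. Camk2a, the alpha subunit needed for long-term potentiation in forebrain, was at 172, 171 and 162 FPKM in wild type and at 189.7, 164.1 and 164.2 FPKM in knock-in. Knock-in replicate 1 was highest and the others lay within the wild-type range, with a fold interval of 0.902 to 1.16. Summed CaMKII FPKM was 332.1 ± 9.61 and 328.9 ± 15.6 (SD, n = 3 each).

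**Figure D4:**
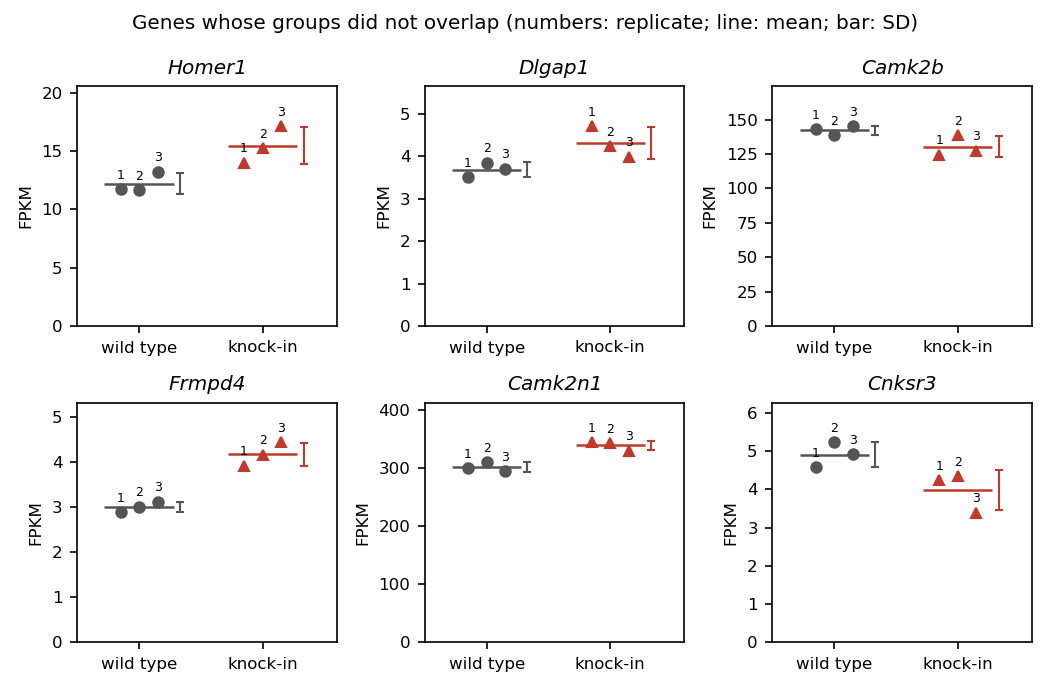
FPKM per library for 6 genes whose genotypes did not overlap: the members Homer1, Dlgap1 and Camk2b and the further postsynaptic genes Frmpd4, Camk2n1 and Cnksr3 (numbers, replicate; line, mean; bar, SD). Cask and Srgap2, further genes also without overlap, are not drawn. Homer1 runs from 11.7 to 13.2 FPKM in wild type and from 14.0 to 17.2 FPKM in knock-in, and of the 6 drawn Camk2b is separated by the narrowest margin.

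The promoters of Homer1, Dlgap1 and Camk2b are shown because their groups did not overlap, a choice made from these same values. Such separation was also seen in 2.92% (higher) and 6.58% (lower) of all genes tested, and none of the 3 members was called. Sequences are from RefSeq on GRCm38.p6, 250 bases before to 50 bases after a transcript start, 5′ to 3′ on the gene's strand. Of the 31 members 23 had at least 1 promoter in that table, 42 promoters in all. Capitals mark matches, on either strand, to TGACG (the core of the cyclic AMP response element), to GGGCGG (the GC box) and to TATAAA (the TATA box). The Homer1 promoter lies at chr13:93303507-93303806 on the plus strand, that of Dlgap1 at chr17:69968823-69969122 on the plus strand and that of Camk2b at chr11:6065699-6065998 on the minus strand.
Homer1: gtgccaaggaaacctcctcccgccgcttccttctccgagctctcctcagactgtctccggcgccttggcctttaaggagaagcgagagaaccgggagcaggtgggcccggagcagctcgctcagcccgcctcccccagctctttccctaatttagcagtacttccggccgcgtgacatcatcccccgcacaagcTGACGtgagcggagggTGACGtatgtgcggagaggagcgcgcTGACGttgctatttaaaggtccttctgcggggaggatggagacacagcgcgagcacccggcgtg
Dlgap1: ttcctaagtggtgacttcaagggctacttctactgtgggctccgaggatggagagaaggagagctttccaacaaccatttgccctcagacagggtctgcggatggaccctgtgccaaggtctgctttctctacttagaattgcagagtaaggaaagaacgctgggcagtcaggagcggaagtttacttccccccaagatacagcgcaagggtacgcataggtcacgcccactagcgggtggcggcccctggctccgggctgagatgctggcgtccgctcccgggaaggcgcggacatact
Camk2b: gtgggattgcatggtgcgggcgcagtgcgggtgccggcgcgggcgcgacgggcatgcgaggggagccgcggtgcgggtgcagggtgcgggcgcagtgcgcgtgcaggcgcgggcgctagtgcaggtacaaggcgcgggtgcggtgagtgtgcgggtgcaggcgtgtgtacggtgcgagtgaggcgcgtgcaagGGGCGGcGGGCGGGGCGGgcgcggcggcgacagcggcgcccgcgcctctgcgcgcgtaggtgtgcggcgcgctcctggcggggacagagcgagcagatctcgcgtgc
Homer1 held 3 matches to TGACG, beginning 56, 40 and 14 bases before the transcript start. At least 1 match was found in 20.8% of all 32851 promoters of this length and in 6 of 42 member promoters. At least 3, a cut equal to the number seen in Homer1, were found in 1.03% of all promoters, with Homer1 the 1 case among members. Because the cut matches what was seen, that share is no measure of how unusual Homer1 is. The second listed Homer1 promoter, at chr13:93307784-93308083, held none of the marked motifs. Camk2b held 3 GC boxes, beginning 57, 50 and 45 bases before the start. The motif was found in 35.7% of all promoters and in 25 of 42 member promoters, with 8 matches in a Homer2 promoter. The share with at least 3 was not computed for the GC box. Median GC content was 52.7% over all promoters and 61.7% over member promoters, some of which overlap within 1 gene. The TATA box was in 13.6% of all promoters and in 5 of 42 here. The shown Dlgap1 promoter held none of the marked motifs. The full element TGACGTCA, which contains TGACG, was in 1.79% of all promoters and in 0 of 42 here. These matches describe letters only, and no binding was measured.

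Of the 5 regulators of small GTPases, 2 were higher and 3 lower. Agap2 was at 202.6 ± 4.46 FPKM in wild type and at 204.4 ± 8.26 FPKM in knock-in (SD, n = 3 each), with a fold interval of 0.911 to 1.12. Iqsec2, an Arf exchange factor linked to intellectual disability, was at 18.2, 21.1 and 19.7 FPKM in wild type and at 20.7, 18.4 and 19.5 FPKM in knock-in. The groups overlapped, with a fold interval of 0.882 to 1.12. Iqsec1 ranged from 16.0 to 18.9 FPKM and Sipa1l1, a GTPase-activating protein for Rap, from 45.3 to 52.4 FPKM. Kalrn, a Rac exchange factor that enlarges spines, was at 10.6 to 12.7 FPKM in wild type and at 11.9 to 14.0 FPKM in knock-in, with a fold interval of 0.947 to 1.25. None of the 5 was at an unadjusted p under 0.05 in limma.

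Of the 3 other adaptors 1 was higher and 2 were lower, and of the 4 actin and spine proteins 1 was higher and 3 were lower. Lrrc7, the CaMKII-binding protein densin, ranged from 5.48 to 6.42 FPKM, the Ras-pathway scaffold gene Cnksr2 from 13.3 to 17.8 FPKM and Begain, whose product binds guanylate kinases, from 36.7 to 43.5 FPKM. Baiap2, which bends membranes and couples Rac to actin, was at 82.6 ± 2.85 FPKM in wild type and at 79.4 ± 1.36 FPKM in knock-in (SD, n = 3 each), with a fold interval of 0.876 to 1.06. Cttn, the branched-actin protein cortactin, ranged from 21.1 to 23.6 FPKM. Ddn was at 397.2 ± 15.9 and 393.4 ± 5.41 FPKM, with a fold interval of 0.891 to 1.10.

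A group SD above 25% of the mean was seen in 5 members, including Camk2d described above. Camk2g, the gamma kinase gene, was at 25.18, 11.8 and 25.02 FPKM in wild type and at 29.4, 25.7 and 20.9 FPKM in knock-in. Wild type replicate 2 alone was low, and without it the log2 difference went from 0.34 to -0.00016. Dlg1, a guanylate kinase that takes part in receptor delivery, was at 10.8, 11.8 and 17.0 FPKM in wild type and at 11.1, 10.2 and 17.7 FPKM in knock-in. Replicate 3 of each genotype was high and the other 4 libraries lay close together, and the difference was -0.03 with all libraries, 0.15 when wild type replicate 3 was left out and -0.26 when knock-in replicate 3 was. Synpo, which encodes the synaptopodin of the spine apparatus, was at 13.9, 13.2 and 15.03 FPKM in wild type and at 20.8, 11.9 and 20.2 FPKM in knock-in. Knock-in replicates 1 and 3 were above all wild-type libraries and knock-in replicate 2 was below them. The log2 difference was 0.27 (adjusted p = 0.997 in limma). Leaving out knock-in replicate 1 gave 0.13, leaving out knock-in replicate 3 gave 0.16 and leaving out knock-in replicate 2 gave 0.51 (adjusted p = 0.160 in limma, the lowest of any member over the alternatives). These genes have many annotated transcripts, 17 for Camk2g, 15 for Dlg1 and 12 for Synpo, and the table does not separate them.

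Shank1 and Nrgn followed a different division of the libraries, and Nrgn is singled out here after its values were seen. Shank1, the Shank that enlarges spine heads, was at 6.60, 6.38 and 6.38 FPKM in wild type and at 11.5, 8.12 and 4.95 FPKM in knock-in. Knock-in replicates 1 and 2 were highest and knock-in replicate 3 lowest. Nrgn was at 936, 897 and 845 FPKM in wild type and at 1047, 1035 and 857 FPKM in knock-in, so its groups overlapped through knock-in replicate 3. Slc17a7, whose product loads glutamate into vesicles of cortical neurons, was measured at 10.95, 3.55 and 2.73 FPKM in wild type and at 29.9, 25.2 and 3.41 FPKM in knock-in, and it ordered the 6 libraries exactly as Nrgn did. All 7 tested cortical markers were higher in knock-in on average, while all 10 myelinating oligodendrocyte, all 7 oligodendrocyte precursor and all 6 tested ependymal markers were lower. Striatal projection neuron markers were 8 higher and 2 lower, and astrocyte markers 1 and 7. In the same order, microglia had 4 and 4, endothelial and mural 3 and 5, thalamic or subpallial 1 and 3, choroid plexus 0 and 2 and blood 0 and 5. Over all genes tested, 6169 were higher and 7987 lower. With the cortical covariate the log2 difference of Nrgn went from 0.13 to -0.01 and that of Shank1 from 0.24 to -0.16. Quantile normalization, with no cortical term, gave -0.0054 for Nrgn and 0.25 for Shank1. Without knock-in replicate 3 the differences of Nrgn and Shank1 were 0.22 and 0.52. The covariate was highest in 2 of the 3 knock-in libraries, so its part and that of genotype cannot be fully told apart.

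**Figure D5:**
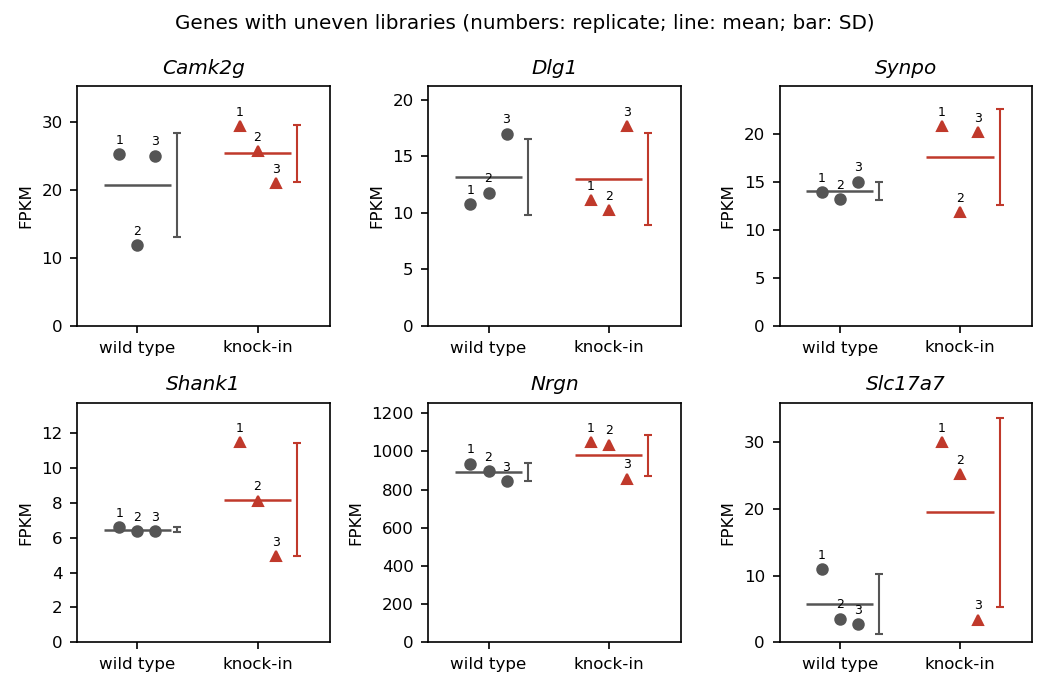
FPKM per library for Camk2g, Dlg1, Synpo, Shank1 and Nrgn and for the cortical marker Slc17a7 (numbers, replicate; line, mean; bar, SD). Camk2g is low in wild type replicate 2 alone at 11.8 FPKM, Dlg1 is high in replicate 3 of both genotypes, and Nrgn and Slc17a7 are highest in knock-in replicates 1 and 2.

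Other genes of the postsynaptic density and spine were counted from 4 lists, 81 genes in all, every one of them tested. None was called in limma. An unadjusted p under 0.05 was reached by 2 genes in the higher and 1 in the lower direction, and the groups of 2 higher and 3 lower genes did not overlap. These counts stand beside 1.25% and 3.02% of all genes tested for the p and 2.92% and 6.58% for the overlap, higher and lower in turn. Among 22 further scaffolds and adaptors, 9 were higher and 13 lower, with a median log2 difference of -0.02. Frmpd4, a scaffold gene whose product binds PSD-95 and Homer, was at 2.89, 3.01 and 3.12 FPKM in wild type and at 3.92, 4.15 and 4.43 FPKM in knock-in. Its groups were well apart, with a log2 difference of 0.37 (SE 0.07, adjusted p = 0.635 in limma), and the lowest adjusted p over its alternatives was 0.379. The other scaffolds named by the same rule differed less, at 0.08 for Mpp3, -0.07 for Mpp2 and -0.05 for Cask. The Cask groups did not overlap, by a small margin, with knock-in at 5.98 to 6.22 FPKM and wild type at 6.23 to 6.47 FPKM. Tanc2, a scaffold gene noted after its values were seen, had the most negative difference of the list, -0.47, with an SE of 0.55 and groups that overlapped.

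A list of 14 genes covered calmodulin, its other kinases and related genes such as Camk2n1, Camk2n2, Pcp4 and Gap43. Of these, 11 were higher and 3 lower, with a median of 0.07. Over all genes tested, 6169 were higher and 7987 lower, and the list was not tested as a set. Camk2n1, an endogenous inhibitor of CaMKII, was at 300.3, 311.1 and 295.3 FPKM in wild type and at 344.8, 343.5 and 330.5 FPKM in knock-in. Every knock-in library was above the wild-type range, and the log2 difference was 0.17 (SE 0.06, adjusted p = 0.997 in limma). The kinase genes Camk1g and Camk1d differed by 0.13 and -0.05. Camk1d changed sign in some alternatives.

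Of 22 further GTPase regulators, 9 were higher and 13 lower, with a median of -0.02. Cnksr3, a relative of Cnksr2, was at 4.58, 5.23 and 4.92 FPKM in wild type and at 4.24, 4.35 and 3.39 FPKM in knock-in. All knock-in libraries were lower, with a log2 difference of -0.25 (SE 0.09, adjusted p = 0.997 in limma), or -0.16 without knock-in replicate 3. Srgap2 differed by -0.09 without overlap, and Sipa1l2 and Rasgrf1 by 0.05 each. Among 23 further actin regulators, 11 were higher and 12 lower, with a median of -0.01 and 0 genes at an unadjusted p under 0.05 in limma. Abi2, a subunit of the actin-regulating WAVE complex, was at 4.00 to 5.03 FPKM in wild type and at 4.10, 7.01 and 8.12 FPKM in knock-in, a difference of 0.38 that ran from 0.21 without knock-in replicate 3 to 0.63 without knock-in replicate 1 and was 0.68 with the cortical covariate. Ppp1r9a, the spine scaffold neurabin, differed by 0.22, or by 0.11 without wild type replicate 1 and 0.41 without wild type replicate 3. Abi1 differed by -0.07 and Actn1 by -0.05, and the groups of all 4 overlapped.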

How the data were processed

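RNA levels in 6 striatal samples were taken from 1 table of FPKM values deposited by the authors, with the unit per the file headers. The submitters' processing notes name HISAT2, StringTie, SAMtools and FastQC without roles. Their versions, the genome build, annotation and strand setting are not given in the sources used. FPKM carries no read counts: in low single-transcript genes the best step put 30.3% to 36.3% of values within 0.1 of whole reads, so depth is unknown and precision came from the spread between libraries. Nothing in the labels says that each sample is a different animal, and the spread behind the p-values may therefore be technical.

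Genes whose mean reached 1 FPKM were compared as log2(FPKM + 1), which understates changes of low genes, with limma 3.58.1 in R 4.3.3 (trended, robust prior, two-sided), with Benjamini-Hochberg adjustment over all genes tested. The fit was checked on data with known changes. The members and lists were chosen with earlier results of these data known. Per-library values are given for members at an unadjusted p under 0.05, without overlap, leading a family, or with an SD above 25% of the mean, and in each further list the 2 smallest p per direction are named, except 1 gene that is not reported here. Gene transcripts are from GENCODE M21 (GRCm38), which matched 22972 identifiers and may differ from the authors' annotation. Alternatives covered the pseudocount (0.1), filter (none or 5 FPKM), scaling, prior, a replicate block, a cortical covariate and each library left out.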

Additional observations from a re-analysis of the deposited data

How the results depend on the processing

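None of the 30 tested members was called in limma in any of the 14 alternatives, and 1 to 4 had an unadjusted p under 0.05. Over all genes, 3 were called, 2 with a replicate block and 3 to 15 with 1 library left out. The titles share replicate numbers, but same-numbered libraries deviated from their group means with correlations of -0.0113, -0.0739 and 0.186, so the numbers were not taken as pairs. With the replicate block 1 member, Homer1, had an unadjusted p under 0.05. The members' median log2 difference ran from -0.028 without knock-in replicate 1 to 0.020 without knock-in replicate 2. With 1 library left out separation is easier to reach, and 2 to 6 members were wholly higher and 1 to 5 wholly lower, most without knock-in replicate 3 (6 and 5 of 30, where 9.67% of all genes were wholly higher and 12.4% wholly lower). Over the libraries left out these shares of all genes ran from 5.31% to 9.67% and from 10.5% to 16.3%. With a minimum of 5 FPKM Dlgap1, Homer2, Homer3 and Shank2 were not tested, and 1 member was wholly higher.

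Of 416 member differences under alternatives, 369 kept their sign, and 10 members kept it throughout, among them Homer1, Homer3, Dlgap1, Camk2b, Kalrn and Synpo. The other 20 changed sign at least once, none past the threshold, and the cause was not tested. With quantile normalization Camk2b was also at an unadjusted p under 0.05, Dlg4 was at -0.011, Agap2 at -0.026 and Nrgn at -0.0054. With median-of-ratios scaling Iqsec2 was at 0.011, Dlgap3 at 0.019 and Ddn at 0.0068. With the cortical covariate Dlg3 was at 0.0057, Dlg4 at -0.022, Dlg1 at 0.317, Camk2a at -0.036, Agap2 at -0.022, Cnksr2 at 0.026, Lrrc7 at 0.019, Shank1 at -0.155, Begain at -0.0052, Iqsec2 at 0.0053, Sipa1l1 at 0.011, Dlgap2 at 0.056, Dlg2 at 0.029, Nrgn at -0.0088 and Camk1d at 0.010. With each library left out in turn the difference ran from -0.0035 to 0.044 for Dlg4, -0.00016 to 0.515 for Camk2g, -0.258 to 0.154 for Dlg1, -0.035 to 0.069 for Camk2a, -0.013 to 0.044 for Agap2, -0.155 to 0.040 for Cnksr2, -0.161 to 0.013 for Homer2, -0.149 to 0.027 for Shank2, -0.017 to 0.516 for Shank1, -0.032 to 0.087 for Begain, -0.061 to 0.042 for Iqsec2, -0.044 to 0.045 for Dlgap3, -0.063 to 0.029 for Sipa1l1, -0.137 to 0.062 for Dlgap2, -0.037 to 0.018 for Ddn, -0.119 to 0.0042 for Dlgap4, 0.134 to 0.515 for Synpo, 0.138 to 0.361 for Homer3, 0.054 to 0.174 for Kalrn, 0.078 to 0.223 for Nrgn, 0.032 to 0.138 for Mpp3, -0.110 to -0.013 for Mpp2, 0.0084 to 0.098 for Sipa1l2, 0.0090 to 0.095 for Rasgrf1, -0.145 to -0.012 for Abi1, -0.080 to -0.026 for Actn1 and -0.092 to 0.014 for Camk1d. All 140 differences in family share moved by less than 1 SD. With 3 samples a group and unknown depth, members such as Camk2g (fold interval 0.740 to 2.17) could differ without detection.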
